A study of Mus musculus with 7 samples.

Results

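Spp1, which encodes the secreted phosphoprotein osteopontin, and Cd44, which encodes its receptor CD44, were followed in splenic regulatory T cells (Tregs) of aged and young mice. The 2 genes were found by their symbols in the deposited table of the series, among 25469 genes with a count in at least 1 library and 47729 genes in the count files. Both were chosen by their aged and young counts in these same libraries, so those levels are given as a description and without a test. Both were among the 13904 genes with enough counts to be fitted.

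Tregs limit immune responses, and the study asked what ageing does to them. RNA-sequencing was made from wild-type (WT) male C57BL/6 mice, without a transgene or treatment in the labels. The aged group held 3 biological replicates of 18 months and the young group 4 biological replicates of 8 weeks, although the methods of the study state another age for the young mice. CD4+CD25+ cells were isolated from the spleen, and cDNA was made with the SMART-Seq v4 kit, which amplifies small amounts of RNA. How many mice went into a library was not given in the sources used here.

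Between 10734234 and 13649310 reads fell on genes in each library, and the first principal component, with 46.7% of the variance, set the aged libraries apart from the young ones. Levels are given as CPM, the counts scaled to library size by TMM. Foxp3, the transcription factor that defines Tregs, averaged 516 ± 93.3 CPM over the 3 aged libraries and 446 ± 61.8 CPM over the 4 young ones (SD). Il2ra, which encodes CD25, averaged 380 ± 87.0 and 579 ± 94.3 CPM. Transcripts of B cells, erythroid cells, neutrophils and macrophages were also present in every library, so the isolates were not pure. Aged and young Tregs stand below for these whole isolates, and which cells held a transcript, that of Spp1 included, was not tested. In such bulk samples, fewer cells of a type and less RNA per cell cannot be told apart.

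Osteopontin is an acidic protein of bone and of inflamed tissue that is secreted by macrophages and activated T cells. It binds integrins through an Arg-Gly-Asp (RGD) motif and through a neighbouring site laid open by cleavage, and CD44 is its best-known receptor outside the integrin family. CD44 is a transmembrane glycoprotein whose main ligand is hyaluronan, and its high expression marks T cells that have met antigen.

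Osteopontin is the ligand of the pair. Spp1 (ENSMUSG00000029304) lies at chr5:104435118-104441050 on the plus strand of GRCm38, with 1648 bases of exon. The aged libraries held 249, 92 and 400 Spp1 reads in replicates 1 to 3, which are 21.8, 9.26 and 37.4 CPM. The young libraries held 8, 4, 2 and 6 reads in replicates 1 to 4, which are 0.699, 0.280, 0.158 and 0.430 CPM. Every aged library was above every young one, and the lowest aged level was 13.3 times the highest young level. Over all fitted genes 29.9% had groups that did not overlap, 15.5% with the aged libraries above and 14.4% with them below. The young levels lay close to the limit of detection, since 3 reads are 0.210 to 0.302 CPM over the 7 libraries, and young replicate 3, with 2 reads, was below it.

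Spp1 averaged 22.8 ± 14.1 CPM over the aged libraries (SD, n = 3) against 0.392 ± 0.233 CPM over the young ones (SD, n = 4). Its log2 fold change was 5.86 with a standard error of 0.57, or 57.9-fold. Spp1 was a gene of middling level in aged Tregs, above 50.6% of the fitted genes. With 2 to 8 reads in the young libraries, it passed the filter on low counts only through its aged counts, so its rank among the fitted genes in young Tregs is not given. Within an age, the highest library was 4.04 times the lowest in aged Tregs and 4.43 times in young Tregs. The exact 95% Poisson intervals of the aged libraries, which cover counting error only, were 19.1 to 24.6, 7.47 to 11.4 and 33.9 to 41.3 CPM. In young Tregs the intervals of the 4 libraries had bounds from 0.0191 to 1.38 CPM.

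**Figure D1:**
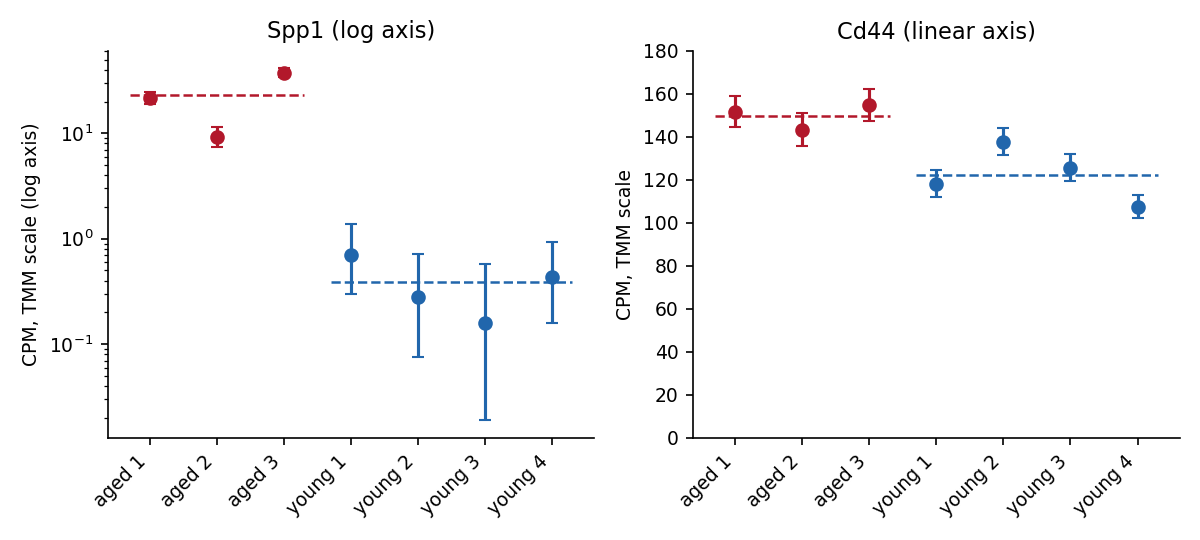
Level of Spp1 (left, log axis) and Cd44 (right, linear axis from 0) in CPM on the TMM scale in each of 3 aged and 4 young libraries, with exact 95% Poisson intervals that cover counting error only, and dashed lines for the group means. The 3 aged libraries lie at 9.26 to 37.4 CPM for Spp1, all above the young libraries at 0.158 to 0.699 CPM, while for Cd44 the aged libraries at 143 to 155 CPM lie just above the young ones at 107 to 138 CPM.

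CD44 is the receptor. Cd44 (ENSMUSG00000005087) lies at chr2:102811141-102901665 on the minus strand, with 6776 bases of exon and 9 annotated transcripts. It was read 1734, 1422 and 1654 times in aged replicates 1 to 3, which are 152, 143 and 155 CPM. In young replicates 1 to 4 it was read 1352, 1965, 1588 and 1499 times, which are 118, 138, 125 and 107 CPM. Again no young library reached the lowest aged one, but the gap was narrow, with a ratio of 1.04 between aged replicate 2 and young replicate 2. The Poisson intervals of these 2 libraries, 136 to 151 and 132 to 144 CPM, overlapped.

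Cd44 averaged 149.8 ± 5.97 CPM over the aged libraries (SD, n = 3) against 122 ± 12.7 CPM over the young ones (SD, n = 4). Its log2 fold change was 0.29 with a standard error of 0.10, or 1.23-fold. This was a common size of change in these data, as 73.1% of the fitted genes had a lower log2 fold change. Cd44 was a highly expressed gene at both ages, above 91.6% of the fitted genes in aged and 88.3% in young Tregs.

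The counts are of genes, so they do not tell which CD44 isoform was expressed. Spp1 shares 18.8% of its exon length with the gene model Gm42793 on the same strand, on which no read was counted in any library. Reads that touch both are left out in the union mode of counting, so reads over that stretch do not enter the Spp1 counts at either age. No exon of Cd44 overlaps another gene.

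To set the 2 genes side by side, levels were divided by exon length in kb. In aged Tregs Spp1 was at 13.8 ± 8.56 CPM per kb (SD, n = 3) and Cd44 at 22.1 ± 0.881 CPM per kb. In young Tregs they were at 0.238 ± 0.141 and 18.0 ± 1.88 CPM per kb (SD, n = 4). Per library, Cd44 exceeded Spp1 1.69, 3.76 and 1.01 times in aged replicates 1 to 3 and 41.1, 119, 193 and 60.8 times in young replicates 1 to 4. The young ratios divide by 2 to 8 Spp1 reads, and counting error in Spp1 alone gave 95% intervals of 20.9 to 95.2, 46.7 to 439, 53.5 to 1595 and 27.9 to 166. Spp1 was below Cd44 in all 4 young libraries and in aged replicates 1 and 2. In aged replicate 3 the order depended on the length used. Over the 1339 bases of Spp1 exon that Gm42793 does not share, Cd44 was at 0.817 times Spp1 there (95% interval 0.741 to 0.904, counting error in Spp1 only), at 1.38 and 3.05 times in aged replicates 1 and 2 and at 33.4 to 157 times in the young libraries.

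The sequences upstream of both genes are shown because the starts of the 2 genes differ in the motifs of factors that are examined below. They are the 250 bases before the most upstream start in RefSeq on GRCm38.p6, printed in the direction of the gene, at chr5:104434861-104435110 (plus strand) for Spp1 and chr2:102901666-102901915 (minus strand) for Cd44. Capitals mark matches to 7 motifs searched on both strands. These were RUNX (TGTGGTT), ETS (AGGAAGT), AP-1 (TGANTCA), T-box (TCACACC), the CCAAT box (CCAAT), the TATA box (TATAAA) and the SP1 GC box (GGGCGG), and none of the matches found overlapped another.
Spp1: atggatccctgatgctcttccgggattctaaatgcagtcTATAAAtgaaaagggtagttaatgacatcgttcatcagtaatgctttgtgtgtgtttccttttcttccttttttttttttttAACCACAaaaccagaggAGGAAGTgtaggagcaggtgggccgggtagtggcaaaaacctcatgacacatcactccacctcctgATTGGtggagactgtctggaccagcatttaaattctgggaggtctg
Cd44: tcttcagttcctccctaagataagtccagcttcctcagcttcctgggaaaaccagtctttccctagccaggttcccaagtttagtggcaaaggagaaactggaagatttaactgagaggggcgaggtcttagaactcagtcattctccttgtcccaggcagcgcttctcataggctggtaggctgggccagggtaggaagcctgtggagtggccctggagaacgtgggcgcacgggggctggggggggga

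In the Spp1 window the TATA box letters matched at -211 to -206 and the ETS letters at -112 to -106. On the other strand the RUNX letters matched at -129 to -123 and the CCAAT letters at -46 to -42. Positions are counted from the base before the start as -1. Over 32817 mouse promoter windows of this length, 4.39% held the RUNX motif, 7.69% the ETS motif, 33.8% the CCAAT letters and 12.4% the TATA box letters. None of the 7 motifs was in the Cd44 window. Of all windows, 6.75% held the AP-1 motif, 3.33% the T-box motif and 32.7% the GC box, none of which was in either window. The Spp1 window was 43.6% GC with 3 CpG and the Cd44 window 56.4% GC with 5 CpG. A match is a description of letters and not of binding.

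The other known receptors of osteopontin are integrins and the ICOS ligand. Among the integrins, alpha v pairs with beta 1, 3, 5, 6 or 8, and alpha 4, 5, 8 and 9 pair with beta 1. Of these 11 genes 9 were fitted, and with edgeR's quasi-likelihood test and Benjamini-Hochberg adjustment over all genes (adjusted p under 0.05) 1 rose and 3 fell in aged Tregs. Over all fitted genes 9.8% rose and 6.94% fell, or 16.7% in all. The median log2 fold change of the 9 genes was -0.32, against 0.02 over all fitted genes.

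Itgb3, the beta 3 integrin chain, was at 34.5, 34.6 and 28.2 CPM in the aged libraries and at 59.95, 54.4, 57.4 and 60.9 CPM in the young ones. All aged libraries lay below all young ones, with a log2 fold change of -0.84 (SE 0.10, adjusted p = 0.00193). Itga9, the alpha 9 chain, which binds the cleaved form of osteopontin, was at 3.41, 4.33 and 5.52 CPM in aged and at 11.3, 11.7, 13.4 and 10.03 CPM in young Tregs. It too fell without overlap of the groups, by 1.39 on the log2 scale (SE 0.21, adjusted p = 0.00401). Both calls held when any 1 of the 7 libraries was left out.

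Itgb8, the beta 8 chain, which with alpha v also activates latent TGF-beta, was at 68.4, 34.0 and 60.7 CPM in aged and at 30.4, 30.8, 25.1 and 16.8 CPM in young Tregs. The aged libraries were all higher, though aged replicate 2 lay close to the young ones (log2 fold change 1.08, SE 0.27, adjusted p = 0.0306). Itga5, the alpha 5 chain of the fibronectin receptor, was lower, with a mean of 7.18 ± 1.62 CPM in the 3 aged and 12.6 ± 2.57 CPM in the 4 young libraries (SD, log2 fold change -0.80, SE 0.22, adjusted p = 0.0405). The call of Itgb8 was lost without aged replicate 1 or 3 or young replicate 1, 3 or 4 (adjusted p from 0.0547 to 0.0992), and that of Itga5 without aged replicate 2 or 3 or young replicate 1, 3 or 4 (adjusted p from 0.0674 to 0.130) and with library size only.

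The other receptor genes did not pass the test. Itgav, the alpha v chain shared by the RGD-binding receptors of osteopontin, was at 68.8, 41.0 and 90.1 CPM in aged and at 45.01, 44.1, 44.2 and 36.6 CPM in young Tregs (log2 fold change 0.65, SE 0.23, adjusted p = 0.0861), and the groups overlapped through aged replicate 2. Itgav passed by DESeq2 and without aged replicate 2, with a log2 fold change from 0.37 to 0.90 and an adjusted p from 0.00795 to 0.290 over all alternatives. Icosl, the ICOS ligand, had a log2 fold change of 0.44 (SE 0.17, adjusted p = 0.119). Values for Itgb1, the common beta 1 chain, Itga4, the alpha 4 homing chain, and Itgb5, the beta 5 chain, were -0.03 (SE 0.12), -0.32 (SE 0.19) and -0.36 (SE 0.25), with adjusted p of 0.887, 0.274 and 0.352. Itgb6 had no read in any library and Itga8 had 5 to 15, and neither was fitted.

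Per kb of exon, the receptor genes ranked in young Tregs as Itgb1 at 60.9 ± 7.20 CPM per kb, Itga4 at 34.1 ± 3.61, Cd44 at 18.0 ± 1.88, Icosl at 13.1 ± 2.54 and Itgb3 at 9.86 ± 0.491 (SD, n = 4). Each of these means lay further from its neighbour in the order than the SD of either. Itgav at 3.95 ± 0.370, Itgb5 at 2.72 ± 0.365, Itga5 at 2.54 ± 0.522, Itgb8 at 2.33 ± 0.592 and Itga9 at 1.51 ± 0.182 CPM per kb followed, of which Itgb5, Itga5 and Itgb8 did not differ beyond their spread. In aged Tregs Itgb1 at 59.6 ± 4.22, Itga4 at 27.3 ± 7.38, Cd44 at 22.1 ± 0.881 and Icosl at 17.8 ± 3.09 CPM per kb (SD, n = 3) again led, with Itga4 and Cd44 within the spread of Itga4. Itgav at 6.20 ± 2.29, Itgb3 at 5.50 ± 0.627 and Itgb8 at 4.92 ± 1.63 CPM per kb came next and were within one another's spread.

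**Figure D2:**
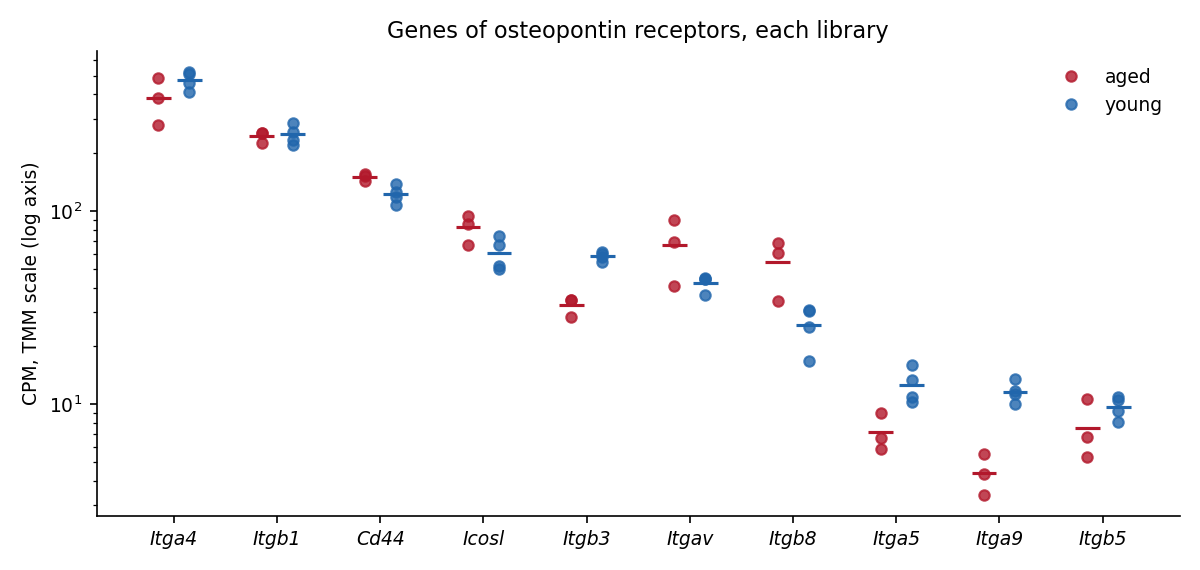
Level of each gene of an osteopontin receptor in CPM on the TMM scale (log axis), with 1 point per library and bars for the mean of 3 aged and of 4 young libraries. The aged points lie below the young ones for Itgb3, Itga5 and Itga9 and above them for Itgb8, and they overlap for Itgav, Itgb1, Itgb5, Itga4 and Icosl.

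Osteopontin belongs to the SIBLING family of secreted bone and tooth proteins, whose genes lie together on chromosome 5. The others were nearly silent, with no read of Ibsp, Mepe or Dspp and 1 read of Dmp1 in 7 libraries. Osteopontin is phosphorylated by the kinase Fam20c, cut by thrombin and by matrix metalloproteinases such as Mmp9, and cross-linked by the transglutaminase Tgm2. Of the 11 family and processing genes 3 were fitted, and none passed the test by edgeR, DESeq2 or limma voom, while 2 had an unadjusted p under 0.05 in edgeR. Fam20c averaged 1.60 ± 0.514 CPM in the 3 aged and 0.559 ± 0.277 CPM in the 4 young libraries (SD, log2 fold change 1.48, SE 0.44, adjusted p = 0.0533). It passed without mitochondrial, immunoglobulin and haemoglobin genes and without aged replicate 1 (adjusted p from 0.0455 to 0.190 over all alternatives). However, Fam20c passed the filter on low counts only through its aged libraries, so its tests are not given as support. Mmp9, also a gene of neutrophils, was at 80.8, 24.98 and 19.3 CPM in aged and at 16.7, 5.61, 17.1 and 12.4 CPM in young Tregs (log2 fold change 1.69, SE 0.53, adjusted p = 0.0627), and passed only with no filter (adjusted p from 0.0269 to 0.199 over all alternatives). It was highest in aged replicate 1, whereas Spp1 was highest in aged replicate 3. Tgm2 had a log2 fold change of 0.34 (SE 0.15, adjusted p = 0.159).

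The 3 protein-coding genes on each side of Spp1 and of Cd44 were examined because position was not used to choose the pair. Of these 12 genes 6 were fitted and 0 passed edgeR's test, with 2 at an unadjusted p under 0.05. By DESeq2 2 passed and by limma voom 1, and Pkd2 and BC005561 were nearest to the threshold. Pkd2, a calcium-permeable channel gene that starts 18400 bases after Spp1, was read 27, 22 and 32 times in aged and 14, 3, 16 and 6 times in young Tregs. Its groups did not overlap (log2 fold change 1.71, SE 0.51, adjusted p = 0.0536), and it passed in 5 alternative analyses, with adjusted p from 0.0257 to 0.158 over all of them. However, Pkd2 passed the filter on low counts only through its aged libraries, so its tests are not given as support. BC005561, the next gene, had a log2 fold change of -0.72 (SE 0.23, adjusted p = 0.0691) and passed in 3 alternatives (adjusted p from 0.00953 to 0.197), and Zfp951 had one of 0.35 (SE 0.21, adjusted p = 0.297). Beside Cd44, Pdhx, a subunit gene of pyruvate dehydrogenase, Apip, an enzyme gene of methionine salvage, and Ehf, an ETS factor, had log2 fold changes of 0.15, -0.07 and 0.84 (SE 0.14, 0.14 and 0.40, adjusted p = 0.507, 0.775 and 0.184). Slc1a2, Pamr1 and Fjx1 had at most 7 reads in a library and were not fitted.

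Of 10 transcription factor genes whose products are reported to act at the osteopontin gene, all fitted, 4 rose and 3 fell, where 9.8% and 6.94% of all fitted genes did, with a median log2 fold change of 0.42. Runx2, the master factor of bone cells, was at 39.0, 30.2 and 48.4 CPM in aged and at 20.1, 17.7, 19.3 and 15.1 CPM in young Tregs, a rise of 1.12 on the log2 scale (SE 0.17, adjusted p = 0.00496). Tbx21, which encodes T-bet, the factor of type 1 T cells, was at 14.4, 18.3 and 18.0 CPM in aged and at 6.03, 7.43, 9.32 and 9.96 CPM in young Tregs (log2 fold change 1.04, SE 0.20, adjusted p = 0.0105). The aged libraries lay above the young ones for both genes, and both calls held when any 1 library was left out.

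Cebpb, a factor of myeloid and inflammatory genes, and Vdr, the vitamin D receptor, also rose, at low levels of 5.41 ± 2.17 and 3.86 ± 1.83 CPM (SD, n = 3) in aged Tregs (log2 fold changes 1.42, SE 0.31, and 1.46, SE 0.36, with adjusted p of 0.0172 and 0.0289). The factors that fell were Ets1, a factor of resting lymphocytes, and Fos and Jun, which form AP-1, by 0.57 (SE 0.15), 1.71 (SE 0.50) and 1.65 (SE 0.37) on the log2 scale (adjusted p = 0.0398, 0.0495 and 0.0199). The groups of Fos overlapped, with 334 CPM in aged replicate 1 and 240 CPM in young replicate 3. Those of Jun did not, but young replicate 3 at 177 CPM lay close to aged replicate 1 at 171 CPM. Runx1 and Runx3, the RUNX factors of T cells, had log2 fold changes of 0.00 (0.001 ± 0.111, SE) and 0.28 (SE 0.11, adjusted p = 0.127) and did not pass. The calls of Ets1, Cebpb, Vdr, Jun and Fos were each lost without aged replicate 3 and without young replicate 1, and in 1 to 4 further fits that left out a library (adjusted p from 0.0503 to 0.160). That of Fos was also lost by limma voom and with at least 10 counts in every library, and that of Ets1 with library size only.

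**Figure D3:**
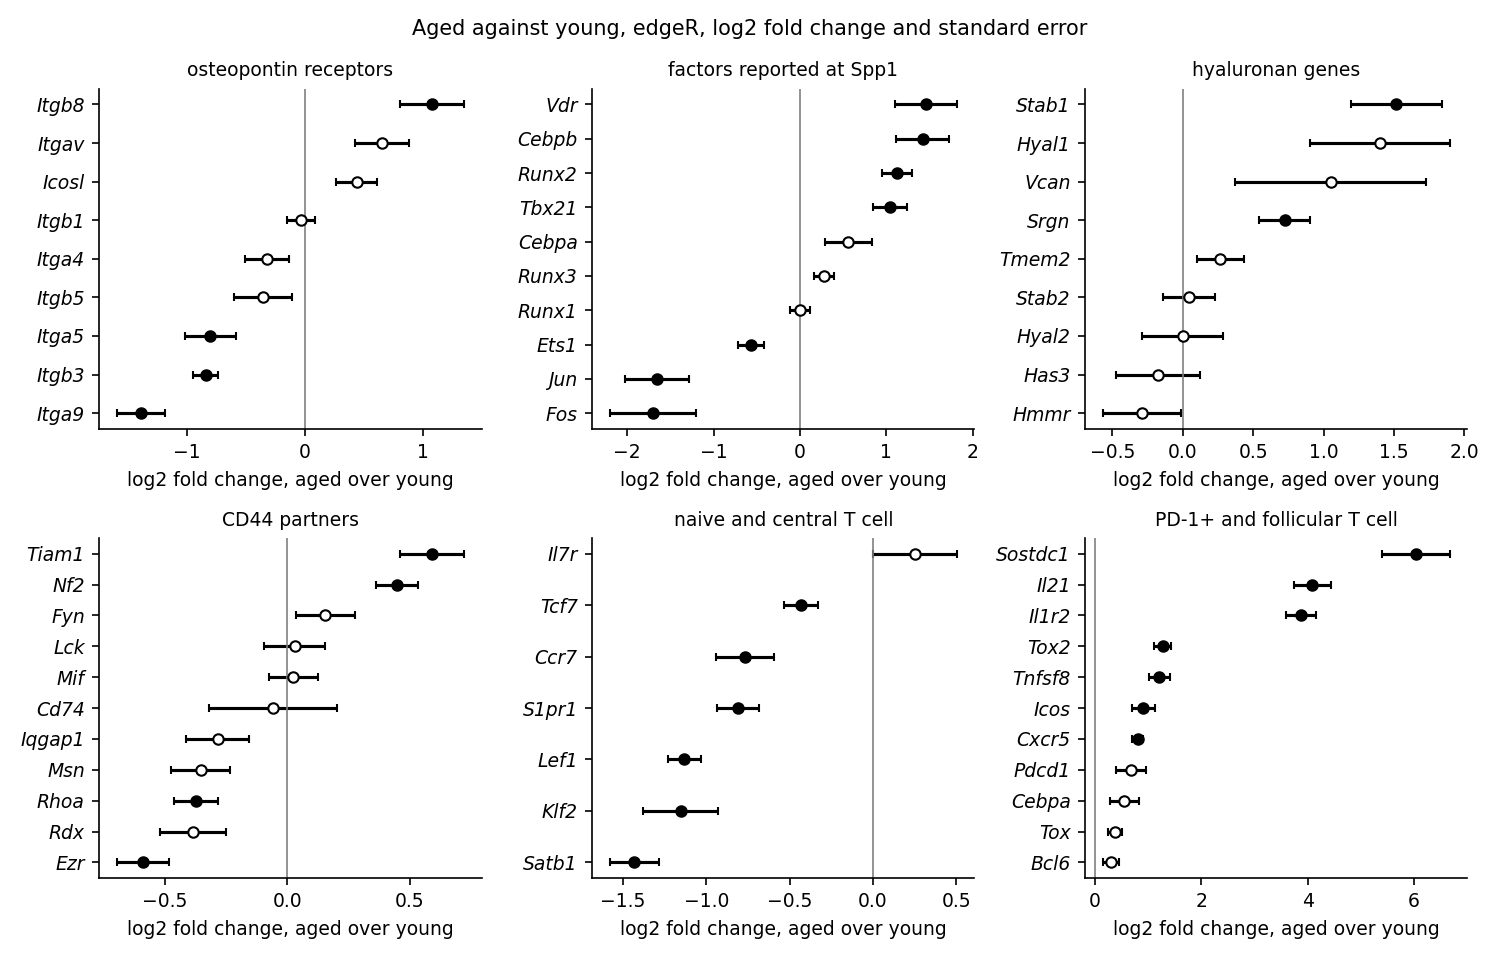
Log2 fold change of aged over young Tregs with its standard error for fitted genes of 6 lists, with filled points for genes that passed edgeR's test at an adjusted p under 0.05 and open points for those that did not. Runx2 and Tbx21 lie to the right of 0 at 1.12 and 1.04, Itgb3 and Itga9 to the left at -0.84 and -1.39, and of the 7 naive and central T cell genes drawn 6 lie to the left of 0.

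CD44 binds hyaluronan, which is made by the synthases Has1, Has2 and Has3 and broken down by hyaluronidases. Of 17 genes for its synthesis, breakdown and binding 9 were fitted, of which 2 rose and none fell, a share not far from the 16.7% of all fitted genes that passed. The median log2 fold change was 0.27. Srgn encodes serglycin, a granule proteoglycan that binds CD44. It was at 543, 487 and 714 CPM in aged and at 337, 446, 325 and 299 CPM in young Tregs, without overlap (log2 fold change 0.72, SE 0.18, adjusted p = 0.0293). Stab1, a scavenger receptor, rose from a young mean of 2.12 ± 0.840 to an aged mean of 6.13 ± 1.35 CPM (SD), with a log2 fold change of 1.52 (SE 0.32, adjusted p = 0.0163). The call of Stab1 was lost without aged replicate 3 (adjusted p = 0.0627), and that of Srgn without aged replicate 3 or young replicate 1, 3 or 4 (adjusted p from 0.0739 to 0.0980), with library size only and after removal of GC and length trends. Has3 was read at 1.66 ± 0.529 and 1.90 ± 0.370 CPM (log2 fold change -0.18, SE 0.30, adjusted p = 0.730), and Has1 and Has2 were too low to be fitted. Hmmr, another hyaluronan receptor that is high in dividing cells, had a log2 fold change of -0.29 (SE 0.28, adjusted p = 0.512).

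The cytoplasmic tail of CD44 is tied to actin by ezrin, radixin and moesin and is held back by merlin, the product of Nf2. Of 12 partner genes 11 were fitted, of which 2 rose and 2 fell, beside 9.8% and 6.94% of all fitted genes. Ezr, which encodes ezrin, was at 299, 248 and 256 CPM in aged and at 392, 416, 391 and 412 CPM in young Tregs, a fall of 0.59 on the log2 scale (SE 0.11, adjusted p = 0.00891). Nf2 was at 103, 107 and 98.8 CPM in aged and at 79.4, 77.8, 68.9 and 75.2 CPM in young Tregs, a rise of 0.45 (SE 0.09, adjusted p = 0.0113). Neither gene had overlapping groups, and both calls held without any 1 library.

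Tiam1, an activator of the GTPase Rac, rose (log2 fold change 0.59, SE 0.13, adjusted p = 0.0195) and Rhoa, a GTPase of the cytoskeleton, fell (log2 fold change -0.37, SE 0.09, adjusted p = 0.0259). Both calls were lost without aged replicate 3, young replicate 3 or young replicate 4, and that of Rhoa also without young replicate 1 (adjusted p from 0.0516 to 0.0834). The call of Tiam1 was also lost with library size only and that of Rhoa with no filter. The other ERM genes Msn and Rdx had log2 fold changes of -0.35 and -0.39 (SE 0.12 and 0.13, adjusted p = 0.0796 and 0.0858). Without aged replicate 1, 5 partner genes fell, with Msn, Rdx and the scaffold gene Iqgap1 among them (adjusted p = 0.0417, 0.00752 and 0.0405). Msn passed in 4 alternatives, DESeq2 and limma voom among them, and Rdx in 3, DESeq2 among them (adjusted p from 0.00828 to 0.232 and from 0.00752 to 0.240 over all alternatives). Cd74, which signals through CD44, and its ligand Mif were at -0.06 (SE 0.26) and 0.02 (SE 0.10), with adjusted p of 0.907 and 0.899.

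CD44 is cut at the cell surface by Adam10, Adam17 and Mmp14, and its variant exons are governed by splicing regulators such as Esrp1, Khdrbs1 and Tra2b. Of 10 such genes 8 were fitted, and 1 fell and none rose, beside 6.94% of all fitted genes that fell. Mmp14 fell by 0.85 on the log2 scale (SE 0.24, adjusted p = 0.0439), from a young mean of 8.25 ± 2.02 to an aged mean of 4.58 ± 0.644 CPM (SD). This call was lost in 6 of the 7 fits that left out a library, and held only without young replicate 2 (adjusted p from 0.0749 to 0.115 in the others), and it was also lost by limma voom. Adam10 and Adam17, the main sheddases, had log2 fold changes of -0.20 and -0.19 (SE 0.10 and 0.09, adjusted p = 0.217 and 0.162), and Khdrbs1 and Tra2b of -0.05 and -0.08 (SE 0.11 and 0.09, adjusted p = 0.770 and 0.549). Esrp1, the epithelial splicing factor that favours variant exons, had no read.

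CD44 is low on naive T cells and rises once they have met antigen, so genes of these states were examined beside it. Of 8 genes of naive and central T cells 7 fell and none rose, against 6.94% of all fitted genes that fell, with a median log2 fold change of -0.97. Satb1, a chromatin organiser, Klf2, which keeps T cells quiescent, and Lef1, a Wnt-pathway factor, fell by 1.43 (SE 0.15), 1.15 (SE 0.22) and 1.13 (SE 0.10), with adjusted p of 0.00114, 0.0123 and 0.000617. The calls of Ccr7, Klf2 and Tcf7 were each lost without aged replicate 3 (adjusted p from 0.0516 to 0.0903 over all losses), those of Ccr7 and Tcf7 also without aged replicate 2 or young replicate 1, and that of Tcf7 without young replicate 3 or 4 too.

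Of 15 effector and memory T cell genes 7 rose and none fell, against 9.8% of all fitted genes that rose, with a median log2 fold change of 0.47. Their summed level was 2154, 1661 and 1751 CPM in aged and 1852, 2334, 1716 and 1550 CPM in young libraries, and the groups overlapped. Gzmk, a granzyme gene, was at 9.87, 2.22 and 7.77 CPM in aged and at 0.175, 0.771, 0.237 and 1.00 CPM in young Tregs. It is 1 of the 7, but passed the filter on low counts only through its aged libraries, so its test is not given as support. Cxcr3, a chemokine receptor of type 1 T cells, and S100a6, a calcium-binding protein gene, rose by 1.64 (SE 0.18) and 1.14 (SE 0.12) on the log2 scale (adjusted p = 0.00125 and 0.00121), and both calls held without any 1 library. The calls of S100a4, Anxa2 and Prdm1 were each lost without aged replicate 3 or young replicate 4 and without up to 3 others (adjusted p from 0.0512 to 0.0972), and that of Anxa2 also with library size only and after removal of GC and length trends. Cd69, Ccr6, Il2rb and Klrg1, which are also used as markers of activated cells, had log2 fold changes of -0.15, -0.11, -0.35 and -0.05 and adjusted p of 0.741, 0.640, 0.262 and 0.888.

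Osteopontin is also a product of PD-1+ senescence-associated CD4+ T cells and of follicular T cells. Of 11 genes named for those cells 7 rose and none fell, against 9.8% of all fitted genes that rose, with a median log2 fold change of 0.92, and 15.5% of all fitted genes lay above without overlap against 7 of these 11. Sostdc1, a secreted antagonist of BMP and Wnt that follicular T cells make, was at 9.44, 7.85 and 14.6 CPM in aged and at 0, 0, 0.158 and 0.430 CPM in young Tregs. Il21, the cytokine of follicular T cells, was at 8.999, 6.14 and 13.5 CPM in aged and at 0.350, 0.631, 0.553 and 0.645 CPM in young Tregs. Both are among the 7, but like Spp1 they passed the filter on low counts only through their aged libraries, so their tests are not given as support.

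Il1r2, the decoy receptor of interleukin-1, rose by 3.87 (SE 0.28, adjusted p = 0.000330) and Tox2, a factor of follicular T cells, by 1.28 (SE 0.16, adjusted p = 0.00193). The call of Icos was lost without aged replicate 3 or young replicate 1, 3 or 4 (adjusted p from 0.0523 to 0.0768). Those of Tnfsf8, Cxcr5, Tox2 and Il1r2 held without any 1 library. Pdcd1, which encodes PD-1 itself, was at 62.2, 83.7 and 76.3 CPM in aged and at 38.4, 76.5, 34.3 and 34.8 CPM in young Tregs. Its groups overlapped through young replicate 2, and it did not pass (log2 fold change 0.69, SE 0.28, adjusted p = 0.134). Without that library it passed, with a log2 fold change of 1.05 (adjusted p = 0.00321), and over all alternatives the adjusted p reached 0.272. Tox, a factor of exhausted T cells, also passed without that library (log2 fold change 0.47, adjusted p = 0.0478, and up to 0.316 in the other alternatives), so that 9 of the 11 genes rose there. Cebpa, named for the same cells, was at 9.55 ± 4.06 and 6.47 ± 0.502 CPM (log2 fold change 0.56, SE 0.27, adjusted p = 0.191), and passed only without aged replicate 1 (adjusted p = 0.0355, and up to 0.651 in the other alternatives).

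Of 10 Treg genes 1 rose and 2 fell, beside 9.8% and 6.94% of all fitted genes, and these 3 calls held without any 1 library. Without young replicate 2, 3 rose, since Ctla4, an inhibitory receptor gene, and Tnfrsf18, which encodes GITR, then passed as higher (log2 fold changes 1.24 and 0.71, adjusted p = 0.00593 and 0.0168). Itgae, the CD103 integrin chain of effector Tregs, rose from a young mean of 48.6 ± 11.2 to an aged mean of 180.4 ± 19.1 CPM (SD), with a log2 fold change of 1.89 (SE 0.18, adjusted p = 0.000898). Gpr83, a receptor gene of resting Tregs, and Lrrc32, which encodes the TGF-beta carrier GARP, fell by 1.71 (SE 0.23, adjusted p = 0.00274) and 1.02 (SE 0.18, adjusted p = 0.00830). Foxp3 and Il2ra had log2 fold changes of 0.21 and -0.61 (SE 0.16 and 0.19, adjusted p = 0.409 and 0.0588). Il2ra passed as lower in 5 alternatives, by DESeq2, by limma voom, with no filter, after removal of GC and length trends and without aged replicate 1 (adjusted p from 0.00672 to 0.185 over all alternatives).

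Osteopontin is also made by macrophages, so the marker genes of 10 other cell types were examined beside Spp1. The summed level of 15 macrophage and monocyte genes was 796, 597 and 720 CPM in aged and 620, 727, 743 and 710 CPM in young libraries. That of 8 red pulp macrophage genes was 287, 376 and 468 CPM in aged and 342, 391, 352 and 368 CPM in young libraries. Both sums overlapped between the ages, and none of these genes was near 0, since each had more than 3 reads in at least 1 library. Spp1 reached its lowest aged level in replicate 2, as did the macrophage sum, while the highest macrophage sum was in aged replicate 1 and the highest Spp1 level in aged replicate 3. The part of macrophages in the level of Spp1 was not tested.

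Among the 15 macrophage and monocyte genes 1 rose and 3 fell, beside 9.8% and 6.94% of all fitted genes, with a median log2 fold change of -0.06. Csf1r and Adgre1, which define macrophages, fell by 1.12 (SE 0.16, adjusted p = 0.00310) and 0.70 (SE 0.14, adjusted p = 0.0127), as did Mertk, a receptor for dying cells, while Cd14, a monocyte coreceptor, rose by 1.15 (SE 0.23, adjusted p = 0.0132). Lyz2 and Apoe, the most abundant of the list, had log2 fold changes of 0.22 and 0.04 (SE 0.24 and 0.21, adjusted p = 0.578 and 0.916). Of the 8 red pulp genes 1 rose and 3 fell, with a median of -0.08. Cd163, the scavenger receptor for haemoglobin, fell by 1.77 (SE 0.22, adjusted p = 0.00188) and Vcam1 by 0.56 (SE 0.11, adjusted p = 0.0139), while Axl rose by 0.69 (SE 0.11, adjusted p = 0.00515). Treml4, a receptor for dying cells, fell as well, with 46, 41 and 83 reads in aged and 136, 158, 136 and 209 reads in young libraries (adjusted p = 0.0195), and its call was lost without aged replicate 2 or young replicate 1 or 4 (adjusted p from 0.0502 to 0.0581). Hmox1 had a log2 fold change of 0.40 (SE 0.30, adjusted p = 0.400) and passed only without aged replicate 1 (adjusted p = 0.0244, and up to 0.967 in the other alternatives).

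Of 12 neutrophil genes 5 rose and none fell, against 9.8% of all fitted genes that rose, with a median log2 fold change of 1.96. The count was 8 without aged replicate 3, where the granule genes Camp, Ltf and Ngp passed as well (adjusted p from 0.0292 to 0.0377), 3 without aged replicate 1, and 2 without young replicate 1 or 4. Their sum was 5431, 1969 and 740 CPM in aged and 640, 320, 1019 and 453 CPM in young libraries. The groups overlapped, since aged replicate 3 lay below young replicate 3. Aged replicate 3 had the lowest neutrophil sum and the highest Spp1 level of the aged libraries. S100a9 and S100a8, the most abundant, rose by 2.43 (SE 0.60, adjusted p = 0.0278) and 2.25 (SE 0.65, adjusted p = 0.0468), and both calls were lost without aged replicate 1 or young replicate 1 or 4, and that of S100a8 also without aged replicate 2 or young replicate 2 (adjusted p from 0.0620 to 0.132). The call of Retnlg was lost without young replicate 1 or 4 (adjusted p from 0.0628 to 0.0651). The call of S100a8 was also lost by limma voom, with library size only and after removal of GC and length trends. The calls of Cxcr2 and Csf3r, receptors of neutrophils, held without any 1 library, whereas Mpo and Elane, granule enzymes of their precursors, had log2 fold changes of -0.08 and -0.15 (SE 0.76 and 0.82, adjusted p = 0.955 and 0.925). The part of these cells in the level of Spp1 was not tested.

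The sums of the dendritic, B, plasma, NK, CD8 T, platelet and erythroid lists overlapped between the ages as well. The platelet overlap rested on Itgb3, which is in that list and in the receptor list and made up 37.9% to 82.8% of the sum. Without it, a sum added after the data were seen, the other 7 platelet genes came to 24.7, 34.4 and 46.2 CPM in aged and to 17.9, 11.4, 19.3 and 20.5 CPM in young libraries. The aged libraries were then all above the young ones, with the highest sum in aged replicate 3, as for Spp1, and the lowest aged sum in replicate 1. The part of platelets in the level of Spp1 was not tested.

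Of the 8 platelet genes Ppbp, a platelet chemokine, and Treml1, a receptor of platelet granules, rose, where 9.8% of all fitted genes did. Ppbp rose by 1.80 on the log2 scale (SE 0.41, adjusted p = 0.0213). Treml1 was read 10, 16 and 22 times in aged and 3, 6, 3 and 10 times in young libraries. Treml1 passed the filter on low counts only through its aged libraries, so its test is not given as support. Itga2b, the platelet integrin chain, passed as higher without aged replicate 1 (adjusted p = 0.0186). The calls of Ppbp and Treml1 were lost without aged replicate 3 or young replicate 1 or 3, and that of Treml1 also without aged replicate 2 or young replicate 2 (adjusted p from 0.0558 to 0.127). Of the 10 dendritic cell genes 1 rose and 3 fell, beside 9.8% and 6.94% of all fitted genes. Cd209a, a lectin of monocyte-like dendritic cells, was 1 of those that fell, with 0, 10 and 6 reads in aged and 48, 61, 112 and 65 reads in young libraries. Cd209a passed the filter on low counts only through its young libraries, so its test is not given as support. The call of Zbtb46, which rose, was lost without aged replicate 3 (adjusted p = 0.0600), and that of Clec9a, which fell, without any 1 library other than aged replicate 3 (adjusted p from 0.0679 to 0.124). That of Clec9a was also lost with at least 10 counts in every library. Of the 9 NK cell genes Klrb1c alone fell, beside 6.94% of all fitted genes (log2 fold change -0.73, SE 0.16, adjusted p = 0.0185), a call lost without aged replicate 3 or young replicate 3 or 4 (adjusted p from 0.0509 to 0.0535). Without young replicate 2, 3 of the 9 fell, since Klra8 and Gzma then passed as lower (adjusted p = 0.0398 and 0.0403), and without aged replicate 2 Nkg7 passed as higher (adjusted p = 0.0206). In the main analysis Klra8 passed the filter on low counts only through its young libraries, so its test is not given as support. Of the 8 plasma cell genes Prdm1, named above, alone rose, beside 9.8% of all fitted genes. Without young replicate 2, 5 of the 8 rose, since Jchain, Xbp1, Mzb1 and Derl3 then passed as well (log2 fold changes from 0.63 to 1.65, adjusted p from 0.00630 to 0.0194), and in the other fits that left out a library 0 or 1 did. The plasma cell genes summed to 888, 1139 and 1438 CPM in aged and to 420, 2134, 612 and 520 CPM in young libraries, so the groups overlapped through young replicate 2. Of the 10 genes of the B cell list 0 passed edgeR's test, 4 had an unadjusted p under 0.05, and 3 passed by DESeq2 and 1 by limma voom. Without aged replicate 3, Ms4a1, Pax5 and Ebf1 passed as lower (adjusted p from 0.0187 to 0.0404). The sum of the erythroid genes ranged from 12626 to 161050 CPM, with the highest sum in aged replicate 2, where Spp1 was lowest among the aged libraries, and none of them passed by edgeR, DESeq2 or limma voom or had an unadjusted p under 0.05 in edgeR.

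**Figure D4:**
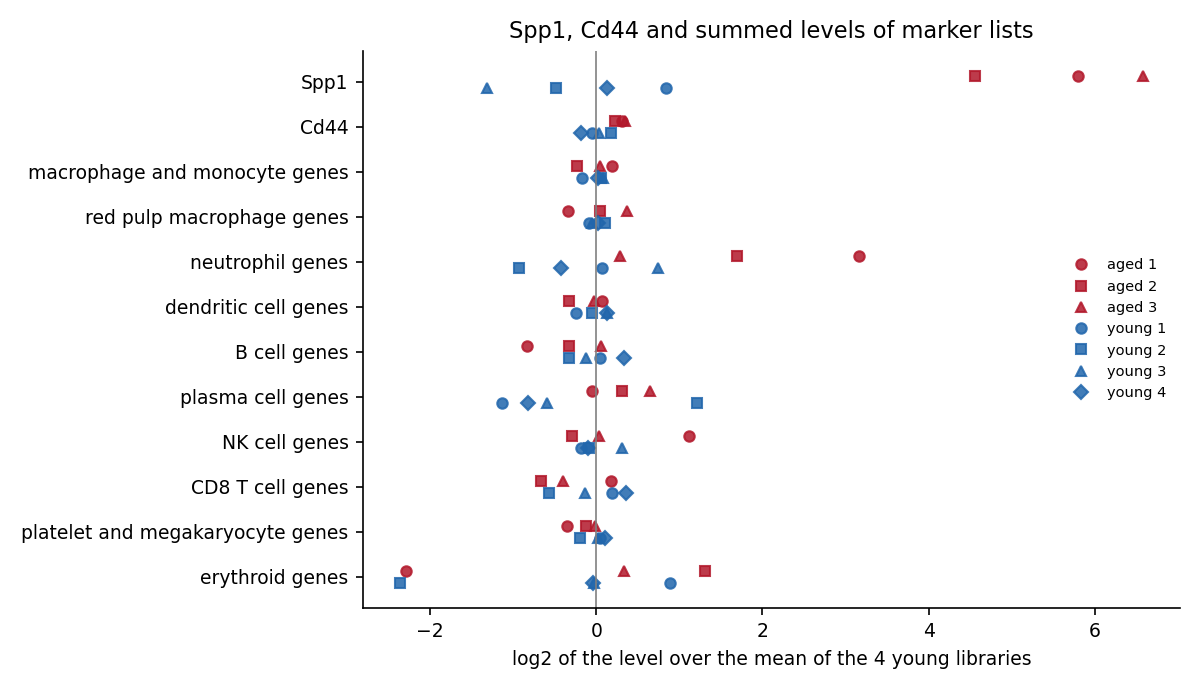
Log2 of the level over the mean of the 4 young libraries for Spp1, Cd44 and the summed CPM of 10 lists of marker genes of other cell types, with 1 point per library. For Spp1 the aged points lie far to the right of the young ones, whereas for all 10 lists, platelet genes with Itgb3 included, the aged and young points overlap, and the neutrophil sum of aged replicate 1 (5431 CPM) lies furthest right among the neutrophil points.

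Profiles over the 7 libraries were compared by the root mean square difference of log2 CPM after the mean of each gene was subtracted, among 9548 genes with a mean log2 CPM of at least 3. The genes most like Spp1 were Il1r2 (0.86), Lilr4b (0.95), Ighg2b (1.04), Il1b (1.09) and Bzrap1 (1.13), with a median of 2.71 over all genes compared. Il1r2, the interleukin-1 decoy receptor, was at 82.7, 75.7 and 166 CPM in aged and at 7.95, 7.85, 6.08 and 7.53 CPM in young Tregs. Il1b, which encodes interleukin-1 beta, was at 68.8, 63.4 and 115 CPM in aged and at 12.4, 4.91, 7.19 and 10.7 CPM in young Tregs. The choice of these 5 genes depended on the level required, since only 1 of them was kept among the 5 most like Spp1 when genes with a mean log2 CPM of at least 1 were compared.

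Ighg2b, an immunoglobulin heavy chain gene of plasma cells, was at 381, 670 and 1531 CPM in aged and at 11.7, 56.2, 17.1 and 18.6 CPM in young libraries. Lilr4b, a myeloid inhibitory receptor gene with a near-identical copy that can share its reads, was at 99.2, 26.5 and 65.5 CPM in aged and at 6.29, 4.62, 3.87 and 3.73 CPM in young libraries. Bzrap1 was the most even of the 5, at 109, 132 and 101 CPM in aged and at 10.7, 8.83, 9.87 and 9.82 CPM in young Tregs. The log2 fold changes of these genes were 3.23 to 5.05.

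The genes most like Cd44 were Aaas (0.04), Vwa8 (0.05), Ngfrap1 (0.05), Zfp958 (0.05) and Xlr4a (0.06), with a median of 0.28 over all genes compared. Aaas, a nuclear pore gene, was at 47.4, 47.0 and 47.3 CPM in aged and at 37.6, 43.1, 39.6 and 35.7 CPM in young Tregs. The profile of Cd44 was nearly flat, with an SD of log2 CPM within the ages of 0.12, against 0.96 for Spp1.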

How the data were processed

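RNA-sequencing of splenic CD4+CD25+ cells was analysed, with 3 libraries of aged and 4 of young mice. The authors deposited raw read counts per Ensembl gene for each library, in the layout of HTSeq-count (union mode, no strand, by the naming), made on build mm10 per the submitters' processing notes. The aligner and annotation were not given in the sources used here. Reads assigned to no gene or to more than 1 (13.1% to 20.9%) were left out. The authors also deposited a signal table, the counts divided by 1 size factor per library, which served as an alternative. Its columns with the authors' own mean, fold change, standard error, statistic and p-values were not used. Symbols came from that table, and coordinates and exon lengths from GENCODE M21 (GRCm38). Because strand was not used, reads over exons of overlapping genes are left out on either strand.

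The ages were compared by the quasi-likelihood test of edgeR 4.0.16 (R 4.3.3) after TMM scaling and filterByExpr by group, without a covariate, with Benjamini-Hochberg adjustment over the 13904 genes fitted. CPM are on the TMM scale, and a mean ± SD is over the libraries of an age. The standard error (SE) of an edgeR log2 fold change was its absolute value divided by the square root of the test's F statistic. For Spp1 and Cd44 it comes from the same fit and is given as a description. Genes passed at an adjusted p under 0.05. Values of some list genes are not reported here, though these genes are in the counts and medians of their lists. The tests were checked on simulated counts. A count of 3 was taken as the limit of detection, and intervals and limits cover counting error only, since the cDNA carries no molecular identifiers. Spp1, Cd44 and the 20 gene lists were chosen with earlier results of these data known. The genes named were Spp1 and Cd44, all receptor genes, up to 4 passing genes per direction in the other pathway and T cell lists and those that the text needs for what did not pass, abundant and defining genes of other cell types, the 3 neighbours on each side, and the 5 genes most like each. Alternatives were DESeq2 1.42.0, limma voom (limma 3.58.1), RLE factors, library size only, mitochondrial, immunoglobulin and haemoglobin genes left out, no filter, at least 10 counts in every library, a block for the replicate number, leaving out every library once, for the fold changes of Spp1 and Cd44 the deposited signal, and for the profiles a prior count of 0.5 in place of 2 or a mean log2 CPM of at least 1 in place of 3. Removal of GC and length trends, the platelet sum without Itgb3 and the level of Spp1 over its unshared exon bases were added after the data were seen.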

Additional observations from a re-analysis of the deposited data

Results flagged for a closer look

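Of 206 sets of 4 young values, 14 had 1 library far from the other 3, by a gap over the range above Dixon's 95% critical value. Chance gives about 1 in 20. Itgav was lowest in young replicate 4, at 36.6 CPM against 44.1 in the nearest library. Pdcd1 was highest in young replicate 2, at 76.5 CPM against 38.4, and this library alone made its groups overlap. Young replicate 2 was also highest for Lef1 (124 CPM), Hmox1 (86.0 CPM), Jchain (1725 CPM), Xbp1 (136 CPM) and the summed plasma cell genes (2134 CPM). Young replicate 1 was highest for Has3 (2.45 CPM) and lowest for Spic (6.90 CPM). Young replicate 3 was highest for Cd209a (8.85 CPM), Pdhx (16.7 CPM) and the summed NK cell genes (133 CPM), and young replicate 4 for Slc40a1 (68.4 CPM) and Cd163 (18.6 CPM). Neither Spp1 nor Cd44 was among them.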

How the results depend on the processing

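The log2 fold change of Spp1 was 5.30 to 6.24 in the alternatives run, with both ends from leaving out a library (aged replicate 3 and young replicate 1), and that of Cd44 was 0.23 to 0.36. Spp1 was not fitted when at least 10 counts in every library were required. Over all genes 2327 passed, 1362 higher and 965 lower, and leaving out 1 library gave 1237 (without young replicate 4) to 3058 (without aged replicate 1), with 1262 without aged replicate 3, 1315 without young replicate 1 and 1270 without young replicate 3. After removal of GC and length trends 1208 were higher and 1569 lower, or 43.5% higher against 58.5%. Genes of the pathway lists that passed numbered 18, and 6 to 21 without 1 library, with 6 without aged replicate 3, 8 without young replicate 1 or 4 and 9 without young replicate 3. Those of the T cell lists numbered 24, and 16 (without aged replicate 3) to 27. Those of the other cell types numbered 22, and 14 (without young replicate 1) to 26. None of the neighbours passed in the main analysis, 2 did with DESeq2 and after removal of GC and length trends, 1 with limma voom, 1 without mitochondrial, immunoglobulin and haemoglobin genes, 1 with no filter, and 0 to 1 without a library (1 without aged replicate 1). Of the 5 genes most like Spp1, 1 was kept with a mean log2 CPM of at least 1 and 4 with a prior count of 0.5, and all 5 of Cd44 were kept. The cause was not tested in any of these.

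The ages share replicate numbers, but same-numbered libraries did not deviate together (r = -0.09, -0.29 and -0.14). Differently numbered libraries had r from -0.24 to 0.23. No pairing by number was seen, though so few correlations cannot exclude it. With the replicate number as a block, 292 genes passed (202 higher and 90 lower), with 2 of the pathway lists, 11 of the T cell lists and 5 of the other cell types. Young replicate 4, alone in its block, adds nothing to that fit. The young level of Spp1, at 2 to 8 reads, is limited by depth.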
